A study of Sus scrofa with 12 samples.

Results

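The 10 genes of the core circadian clock were examined for open chromatin in the longissimus dorsi, the long muscle of the back, of Duroc and Luchuan pigs. Chosen by name, they are ARNTL (also written BMAL1), CLOCK, PER1, PER2, PER3, CRY1, CRY2, NR1D1, NR1D2 and DBP, and all 10 were found by symbol among 19550 protein-coding genes that RefSeq places on the pig assembly Sscrofa11.1. A region belonged to a gene when its midpoint lay in the gene body or within 10 kb of it. This gave 135 of the 140081 regions of the series. The deposited table marks each region as common to both breeds or as specific to one. Of the 135, 73 (54.1%) were common, 44 (32.6%) Duroc-specific and 18 (13.3%) Luchuan-specific. Of all regions, 49.1% were common, 31.8% Duroc-specific and 19.1% Luchuan-specific. ATAC-seq, in which a transposase cuts accessible DNA and reads collect at open chromatin, was performed on 3 male Duroc and 3 male Luchuan pigs aged 180 days and kept under the same conditions. Duroc is a lean breed, and Luchuan is a Chinese breed that lays down more fat. The animals were fasted overnight, and the hour of sampling, which sets the phase of a clock, is not given in the sources used here. The deposited table holds 1 read count per breed for each region, so no value below has a spread between animals and no test between animals was possible. RNA levels were not analysed here.

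The circadian clock is a feedback loop of transcription that runs in most cells, skeletal muscle included. ARNTL and CLOCK bind DNA as a pair at E-box elements and switch on the PER, CRY, NR1D and DBP genes. The PER and CRY proteins then inhibit the ARNTL and CLOCK pair, while NR1D1 and NR1D2 (also called REV-ERB alpha and beta) are nuclear receptors that repress ARNTL. DBP carries the rhythm to further genes as an activator that binds D-box elements. The RNA levels of PER, NR1D and DBP genes swing widely over the day in many tissues.

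Over all 135 regions, the 10 genes held 30827 Duroc reads and 19459 Luchuan reads. The Duroc counts were higher across the whole table. Its regions held 20759894 Duroc and 13746020 Luchuan reads, so Luchuan counts were multiplied by 1.48 to bring the median log2 ratio of all regions to 0. All log2 ratios below are of Luchuan against Duroc after this scaling, and a value below 0 means more signal in Duroc. Brackets give 95% Clopper-Pearson intervals, which cover counting error only. The log2 ratio of the 10 genes together was -0.09 (-0.12 to -0.07). The ratios of single genes ran from -0.30 for NR1D2 to 0.11 for CRY2, with a median of -0.10. For comparison, 11724 genes with 1000 or more reads had a median of -0.01, and their 5th and 95th percentiles were -0.35 and 0.29.

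Accessibility at the clock genes was therefore close to equal between the breeds. In whole muscle, fewer cells of a type and less open chromatin per cell cannot be told apart. None of the 10 genes differed by 1.5-fold or more, and among the 11724 genes 1.07% were lower and 0.461% higher in Luchuan by that much. The interval lay wholly below 0 for 5 of the 10 genes (PER2, PER3, NR1D1, NR1D2 and DBP) and wholly above 0 for CRY2 alone. Among the 11724 genes, 28.1% had an interval below 0 and 23.0% had one above 0. Differences beyond counting error are thus ordinary among the genes of these 2 pooled libraries. An interval that leaves out 0 does not set a clock gene apart from other genes.

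**Figure D1:**
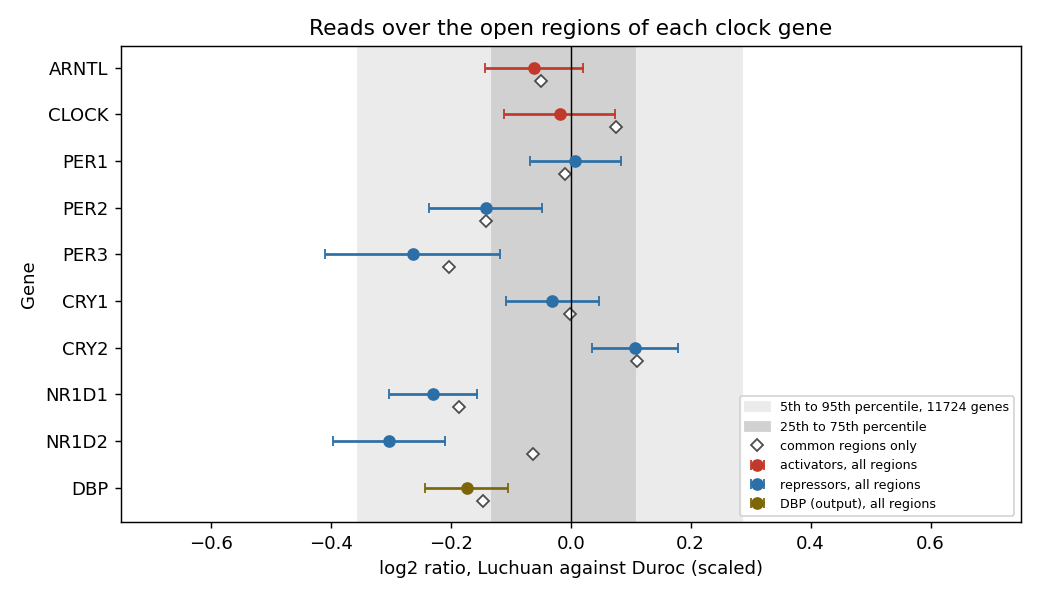
The plot gives the scaled log2 ratio of Luchuan to Duroc reads (horizontal axis) for each of the 10 clock genes, with 95% Clopper-Pearson counting intervals as bars, the value over regions common to both breeds as open diamonds, and the range of 11724 genes in grey. All 10 genes lie inside the 5th to 95th percentile of those genes, and NR1D2 moves from -0.30 to -0.06 when only its common regions are counted.

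The activators ARNTL and CLOCK were compared with the 7 repressor genes. The activators held 5413 Duroc and 3541 Luchuan reads over 43 regions, a log2 ratio of -0.04 (-0.10 to 0.02). The repressors held 20955 Duroc and 13255 Luchuan reads over 82 regions, a log2 ratio of -0.09 (-0.12 to -0.06). The difference of activators minus repressors was 0.05 on the log2 scale, and its exact conditional 95% interval for counting error, -0.02 to 0.12, included 0. The repressors did not share a direction. The PER genes together were at -0.08 (-0.14 to -0.03), the CRY genes at 0.04 (-0.01 to 0.10) and the NR1D genes at -0.26 (-0.32 to -0.20). With DBP placed among the activators, the difference changed sign to -0.0094.

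ARNTL encodes the activator without which the clock stops, and its gene body spans 45895637 to 46025174 on chromosome 2. It had 20 regions with 3048 Duroc and 1968 Luchuan reads and a log2 ratio of -0.06 (-0.14 to 0.02). Its strongest region, from 46024605 to 46025670, lay across the gene end with the higher coordinate and held 1042 Duroc and 766 Luchuan reads, a log2 ratio of 0.13 (-0.01 to 0.26). The annotation used here has no strand, so which end holds the transcription start was not read from it. The other end of ARNTL was bare, with its nearest region 19785 bases inside the gene. Of the 20 regions, 10 lay below 0 and 10 above, and none reached 2-fold. The lowest, at -0.87 from 45973258 to 45973725, was called in Duroc only and held 129 Duroc and 47 Luchuan reads.

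CLOCK encodes the DNA-binding partner of ARNTL, and its gene body spans 54793323 to 54910192 on chromosome 8. It had 23 regions with 2365 Duroc and 1573 Luchuan reads and a log2 ratio of -0.02 (-0.11 to 0.07). Most of its signal sat in a pair of regions. The one from 54909717 to 54910561, across the end with the higher coordinate, held 577 Duroc and 415 Luchuan reads, a log2 ratio of 0.10 (-0.09 to 0.28). The other, inside the gene from 54878069 to 54879131, held 713 Duroc and 463 Luchuan reads, a log2 ratio of -0.05 (-0.22 to 0.12). The counting intervals of both regions included 0. One weak region, from 54905777 to 54905933, reached 2-fold with 35 Duroc and 11 Luchuan reads, at -1.01 (-2.23 to -0.09). The gene TMEM165 overlaps the other end of CLOCK, and 5 of the 23 regions lay in it.

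PER1 encodes a repressor that also responds quickly to light, hormones and stress, and its gene body spans 53361863 to 53376723 on chromosome 12. Its 8 regions held 3518 Duroc and 2382 Luchuan reads, and its log2 ratio of 0.01 (-0.07 to 0.08) was the nearest to 0 of the 10 genes. Its 5 common regions inside the gene or beside its ends had log2 ratios from -0.01 to 0.13. The region across the end with the higher coordinate, from 53376461 to 53377201, held 782 Duroc and 522 Luchuan reads, a log2 ratio of -0.01 (-0.18 to 0.15). The region beside the other end, from 53360689 to 53361791, held 701 Duroc and 518 Luchuan reads, a log2 ratio of 0.13 (-0.03 to 0.30). The largest departures were at 0.55 for a Luchuan-specific region from 53362542 to 53362748, with 92 Duroc and 91 Luchuan reads, and at -0.34 for a region across the end of the neighbouring gene VAMP2, with 495 Duroc and 263 Luchuan reads.

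PER2 encodes a second repressor, the partner of CRY proteins in the inhibiting complex, and its gene body spans 137793419 to 137837854 on chromosome 15. It was the only member whose regions were all called in both breeds. Its 6 regions held 2417 Duroc and 1476 Luchuan reads, a log2 ratio of -0.14 (-0.24 to -0.05). All 6 lay below 0, within a narrow range of -0.21 to -0.06, and 49.98% of all regions lay below 0. The strongest, from 137836829 to 137837598 inside the gene and 256 bases from its end, held 706 Duroc and 456 Luchuan reads, a log2 ratio of -0.06 (-0.23 to 0.11). A pair of the 6 regions lay closer to the neighbouring gene HES6 than to PER2.

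PER3 encodes the remaining PER protein, which is not needed for the rhythm itself, and its gene body spans 68487634 to 68548718 on chromosome 6. It had only 3 regions, the fewest of the 10 genes, and none inside the gene body apart from the one across its end. The region across the end with the lower coordinate, from 68487052 to 68487954, held 79.8% of the reads, with 823 Duroc and 522 Luchuan reads and a log2 ratio of -0.09 (-0.25 to 0.07). The other regions lay in the neighbouring gene VAMP3. The one from 68480255 to 68480601 held 153 Duroc and 49 Luchuan reads and reached 2-fold at -1.05 (-1.57 to -0.60). The one from 68481609 to 68481911 held 104 Duroc and 35 Luchuan reads and was at -0.97 (-1.60 to -0.44). The log2 ratio of PER3, -0.26 (-0.41 to -0.12), therefore rested on these regions of VAMP3, and was -0.09 with the regions nearest to PER3 alone.

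CRY1 encodes the stronger repressor of the CRY pair, and its gene body spans 13275265 to 13429566 on chromosome 5. It had 24 regions, the most of the 10 genes, with 3414 Duroc and 2251 Luchuan reads and a log2 ratio of -0.03 (-0.11 to 0.05). The region across the end with the lower coordinate, from 13274821 to 13276062, held 870 Duroc and 657 Luchuan reads, a log2 ratio of 0.17 (0.02 to 0.31). The strongest region, from 13397076 to 13398328, lay across the end of TMEM263, a gene annotated inside CRY1, and held 1120 Duroc and 743 Luchuan reads, a log2 ratio of -0.02 (-0.16 to 0.11). CRY1 also had 2 weak regions past 2-fold that lay side by side. The one from 13339980 to 13340131 held 20 Duroc and 6 Luchuan reads, at -1.01 (-2.77 to 0.20). The one from 13340134 to 13340283 held 23 Duroc and 4 Luchuan reads, at -1.69 (-3.95 to -0.40). Neither reached 50 reads over both breeds.

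CRY2 encodes the second cryptochrome, and its gene body spans 16587101 to 16620380 on chromosome 2. Its log2 ratio of 0.11 (0.04 to 0.18), from 3763 Duroc and 2730 Luchuan reads, was the highest of the 10 genes and the only one whose interval lay above 0, although it turned to -0.10 when counts were scaled by the study's library totals. Of its 13 regions 11 were above 0, while 49.98% of all regions lay below 0. From 16596607 to 16622014, all 10 regions were between 0.02 and 0.42, so that the higher Luchuan signal was small and spread along the gene. The strongest, inside the gene from 16613419 to 16614156, held 747 Duroc and 538 Luchuan reads, a log2 ratio of 0.10 (-0.07 to 0.26). The region across the end with the higher coordinate, from 16620083 to 16620801, held 731 Duroc and 498 Luchuan reads, a log2 ratio of 0.02 (-0.15 to 0.18). One region inside the gene departed from its neighbours, from 16589777 to 16590136, with 188 Duroc and 66 Luchuan reads at -0.93 (-1.37 to -0.53). The other region below 0, from 16581815 to 16582065 in the neighbouring gene MAPK8IP1, counted 90 Duroc and 38 Luchuan reads at -0.65 (-1.26 to -0.11). Of the 11724 genes with 1000 or more reads, 74.9% had a lower ratio than CRY2.

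NR1D1 encodes REV-ERB alpha, and its gene body spans 22263549 to 22274131 on chromosome 12. Its 11 regions held 4095 Duroc and 2353 Luchuan reads, a log2 ratio of -0.23 (-0.30 to -0.16). All 11 regions lay below 0, between -0.94 and -0.06, beside 49.98% of all regions, and none reached 2-fold. The shift was present in common regions as well, which gave -0.19 (-0.27 to -0.11). Its strongest region ran from 22270396 to 22271185, with 757 Duroc and 410 Luchuan reads and a log2 ratio of -0.31 (-0.49 to -0.14). It also lies across the end of THRA, the gene of thyroid hormone receptor alpha, which overlaps NR1D1, so the region cannot be assigned to one of them. The region across the end with the lower coordinate, from 22263335 to 22263768, held 404 Duroc and 249 Luchuan reads, a log2 ratio of -0.13 (-0.36 to 0.10). The lowest value, -0.94 (-1.43 to -0.51), was also inside THRA, from 22272527 to 22272731, with 159 Duroc and 55 Luchuan reads. Of the 11724 genes, 12.4% had a lower ratio than NR1D1.

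DBP encodes the output activator, and its gene body spans 53986955 to 53993044 on chromosome 6 between SPHK2 and CA11. Its 10 regions held 4459 Duroc and 2663 Luchuan reads, a log2 ratio of -0.17 (-0.24 to -0.10). As in NR1D1, PER2 and PER3, every region lay below 0, here from -0.63 to -0.03. Over the 10 genes, 84 of the 135 regions, or 62.2%, lay below 0, and 49.98% of all regions did. The strongest region of all 135, from 53986128 to 53987484, lay across the end with the lower coordinate, where SPHK2 also ends. It held 1259 Duroc and 721 Luchuan reads, a log2 ratio of -0.23 (-0.37 to -0.10). The region across the other end, from 53992675 to 53993257, held 575 Duroc and 366 Luchuan reads, a log2 ratio of -0.08 (-0.27 to 0.11). The lowest region, inside the gene from 53990853 to 53991060, was called in Duroc only, with 158 Duroc and 68 Luchuan reads at -0.63 (-1.08 to -0.23). The midpoints of 6 of the 10 regions were closer to a neighbouring gene than to DBP.

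**Figure D2:**
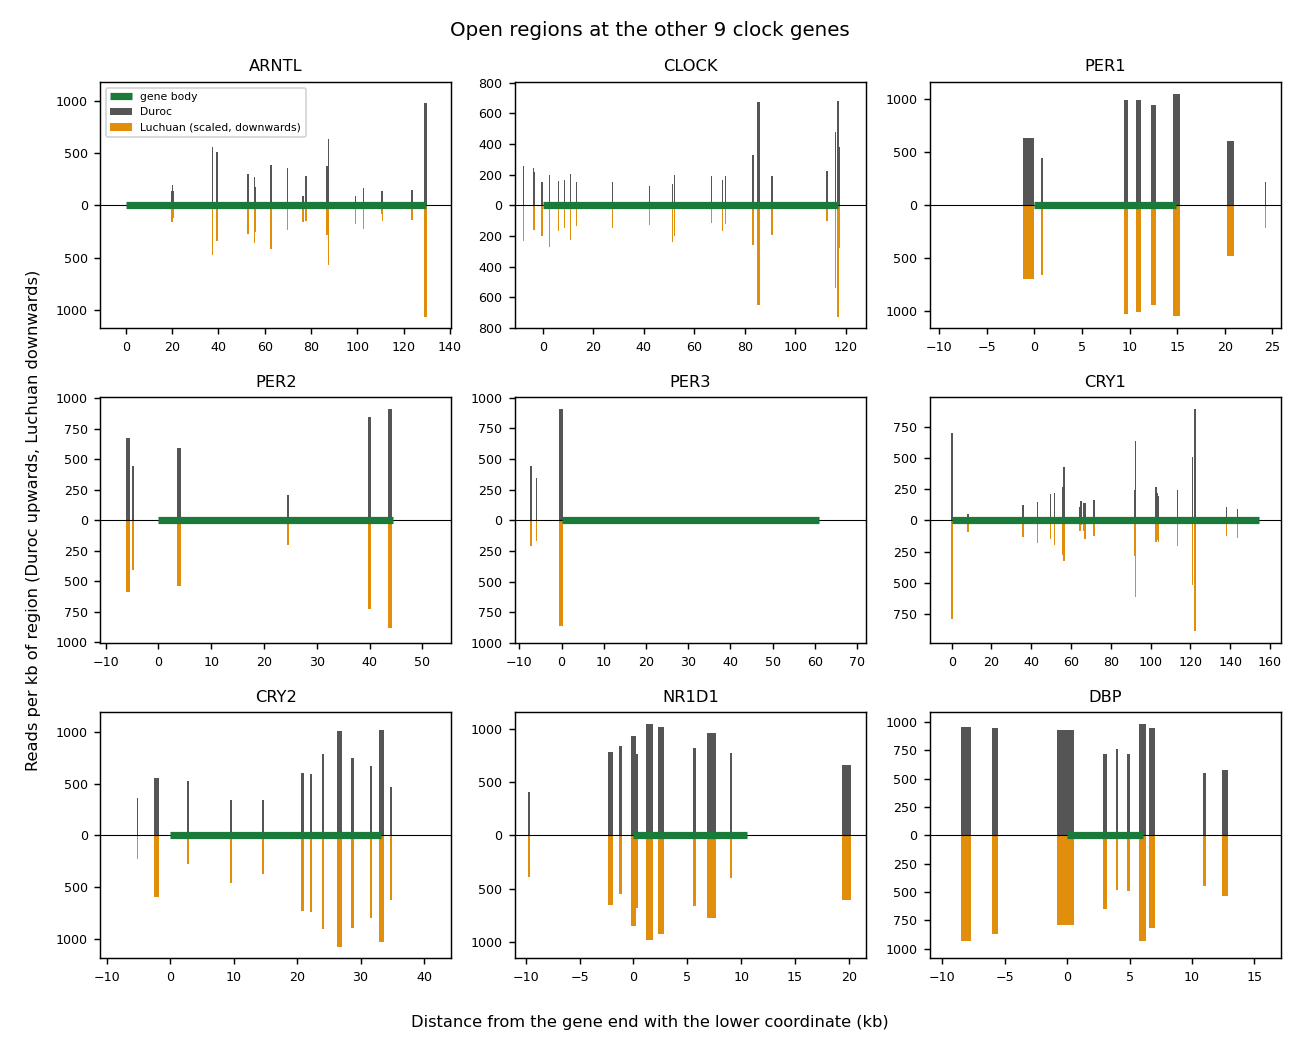
Reads per kb of each region are drawn against its distance in kb from the gene end with the lower coordinate, with Duroc upwards in grey, scaled Luchuan downwards in orange and the gene body in green (regions too narrow to see are drawn wider). The 2 sides nearly mirror each other at the strong regions of PER1, PER3 has its single strong region across 1 end, and the Luchuan side is lower in each of the 11 regions of NR1D1.

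NR1D2 encodes REV-ERB beta, and its gene body spans 10756954 to 10791219 on chromosome 13, where no other gene holds the midpoint of any of its regions. Its 17 regions held 2668 Duroc and 1457 Luchuan reads, and its log2 ratio of -0.30 (-0.40 to -0.21) was the lowest of the 10 genes, with 7.28% of the 11724 genes lower still. The shift was uneven along the locus. Across the end with the lower coordinate, the region from 10756394 to 10757075 held 503 Duroc and 346 Luchuan reads, a log2 ratio of 0.03 (-0.17 to 0.23). The strongest region, just inside from 10757375 to 10758014, held 611 Duroc and 354 Luchuan reads, at -0.22 (-0.41 to -0.03). Over the first 8 regions, up to 12 kb into the gene, 1942 Duroc and 1242 Luchuan reads gave -0.07. Over the 9 regions beyond, 726 Duroc and 215 Luchuan reads gave -1.18, and 8 of the 9 lay below 0. The boundary at 12 kb was drawn after the values had been seen.

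In this far part, 5 regions were 2-fold or more lower in Luchuan, and all of them were called in Duroc only. The largest difference of all 135 regions was inside the gene from 10782649 to 10782973, where 132 Duroc and 20 Luchuan reads gave -2.09 (-2.91 to -1.47). The other 4 lay outside, beyond the end with the higher coordinate. At 2.54 kb from that end, the region from 10793656 to 10793864 held 55 Duroc and 9 Luchuan reads, at -1.92 (-3.24 to -1.01). At 6.76 kb, the region from 10797793 to 10798161 held 123 Duroc and 30 Luchuan reads, at -1.43 (-2.09 to -0.88). Close by came the region from 10798560 to 10798714 with 47 Duroc and 14 Luchuan reads, at -1.11 (-2.15 to -0.29). Beside that one, the region from 10798729 to 10799167 held 168 Duroc and 55 Luchuan reads, at -1.02 (-1.51 to -0.59). These are weak regions, of 61 to 223 reads, beside 849 and 965 at the lower end of the gene. The 4 outside the gene lay 2.54 to 7.73 kb beyond it, and a window of 2 kb in place of 10 kb left them out and moved the log2 ratio of NR1D2 to -0.17. Between 10 and 120 kb beyond the same end there were 13 more regions, of which 11 were Duroc-specific and 12 lay below 0, with a median of -0.63. This stretch was not among the planned windows and was examined for NR1D2 alone, on this side alone. Of all regions, 31.8% were Duroc-specific, with a median of -0.36, and 49.98% lay below 0. Because a Duroc-only call favours a ratio below 0, the signs at these 13 regions, and at the 7 Duroc-specific ones of the 9 in the far part of NR1D2, follow in part from how the regions were called. With common regions alone NR1D2 was at -0.06 (-0.17 to 0.04).

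**Figure D3:**
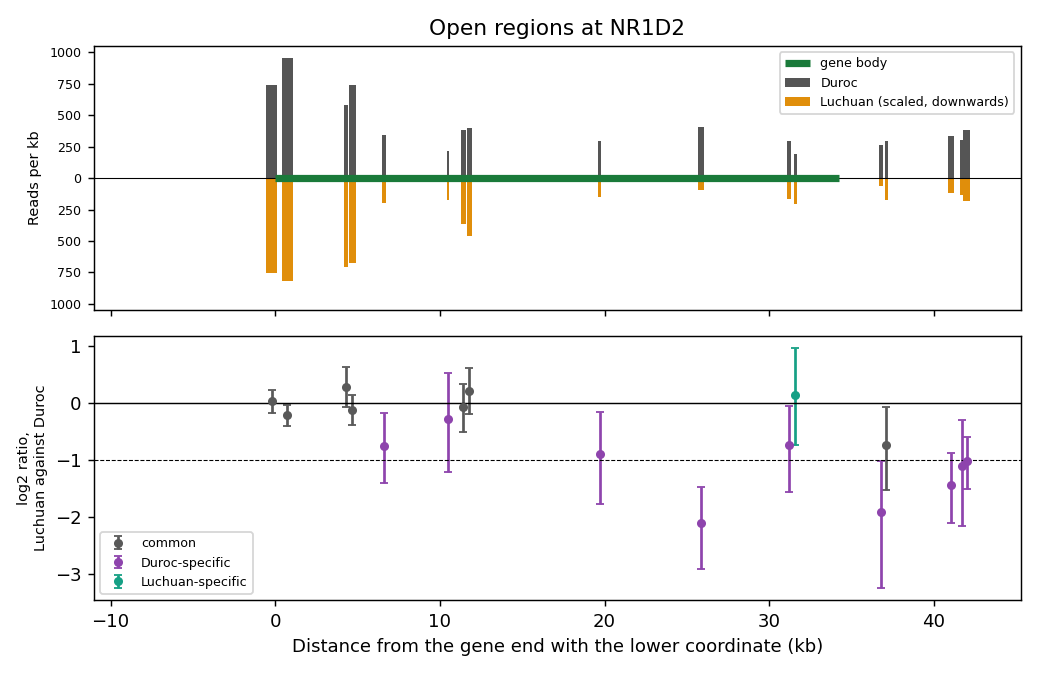
The upper panel gives reads per kb of each NR1D2 region (Duroc upwards, scaled Luchuan downwards, gene body in green) and the lower panel its log2 ratio with the 95% counting interval, both against the distance in kb from the gene end with the lower coordinate. Regions up to 12 kb lie between -0.28 and 0.28 apart from one at -0.75, and those further on fall to between -0.74 and -2.09 except for a Luchuan-specific one at 0.14.

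Across all 10 genes, 9 of the 135 regions, or 6.67%, were 2-fold or more lower in Luchuan, and 5.26% of the 140081 regions were. None of the 135 was 2-fold or more higher in Luchuan, and 7.50% of all regions were. Weak regions make up much of that background. Among regions with 50 or more reads, 6 of 112 at the clock genes, or 5.36%, were lower in Luchuan, against 5.11% of all such regions, and 0 of 112 were higher, against 2.50%. The share that was lower is thus close to the background. The 9 regions were 5 of NR1D2, 2 of CRY1, 1 of CLOCK and 1 in the window of PER3, and 8 of them were Duroc-specific. A region called in Duroc alone was selected for a higher Duroc signal, so its ratio is partly fixed by its class. The 44 Duroc-specific regions of the clock genes had a median log2 ratio of -0.60, and all 44532 had -0.36. The 18 Luchuan-specific regions had a median of 0.13, and all 26773 had 0.78. For the 73 common regions the median was -0.06, beside 0.01 for all 68776.

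The regions with many reads differed least. At the clock genes 49 regions had 300 or more reads, and their log2 ratios ran from -0.59 to 0.32. Their median was -0.08, and their 10th and 90th percentiles were -0.29 and 0.17. Over all 31798 regions with as many reads, the median was -0.01, and the 10th and 90th percentiles were -0.45 and 0.29. For 9 of the 10 genes a region lay across at least 1 gene end, PER2 being the exception, and 10 of the 20 ends were covered in this way. All 10 of those regions were common to both breeds and held 653 to 1980 reads. Their log2 ratios lay between -0.23 at DBP and 0.17 at CRY1, with a median of 0.0028. Regions across the ends of the clock genes thus differed by less than 1.5-fold, and those past 2-fold were weaker regions away from the ends. Strong regions vary less, however. For all regions with about as many reads as the one at DBP, the 5th percentile was -0.21, and the DBP region at -0.23 lay below it.

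**Figure D4:**
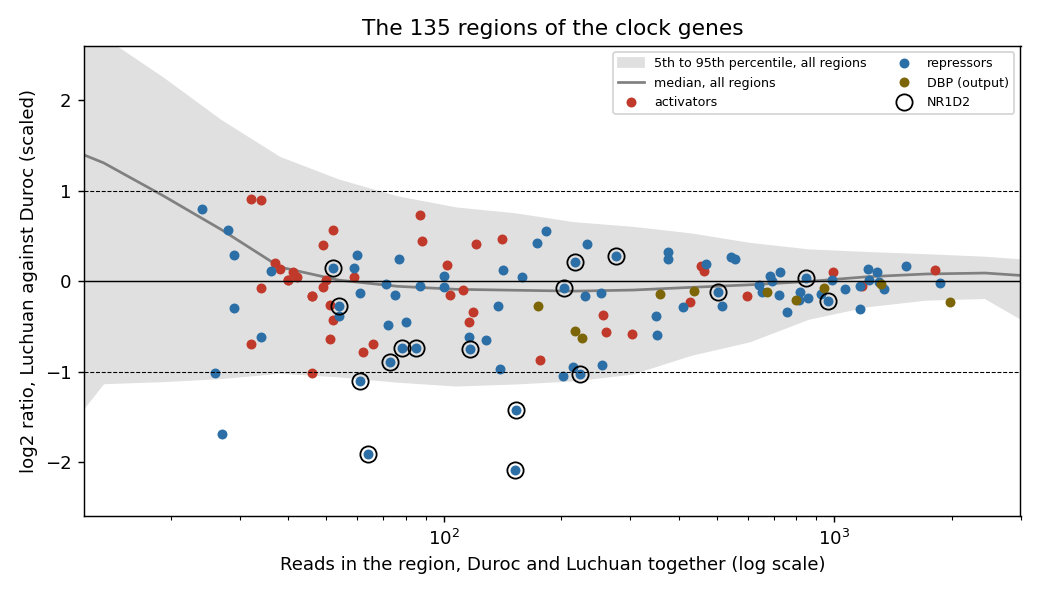
Each point is 1 of the 135 regions of the clock genes, with its reads in both breeds together on a log axis and its scaled log2 ratio of Luchuan to Duroc on the vertical axis, coloured by role. The grey band is the 5th to 95th percentile of all regions by reads and dashed lines mark 2-fold. No point lies above the upper line, 9 lie below the lower line, and 5 of these belong to NR1D2 (circled).

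The level of accessibility, as reads per kb of region, differed more between the clock genes than between the breeds. In Duroc it was highest at DBP with 867 reads per kb (exact Poisson 95% interval for counting error, 842 to 893) and NR1D1 with 860 (833 to 886), which did not differ beyond counting error. PER1 followed with 783 (757 to 809). PER3, CRY2 and PER2 came next with 695, 685 and 683, and their intervals overlapped. NR1D2 was at 505, CRY1 at 437 and ARNTL at 432, and the intervals of the last pair overlapped. CLOCK was lowest with 368 (353 to 383). In Luchuan, after scaling, PER1 was highest with 787 (756 to 819), followed by DBP with 769, CRY2 with 737 and NR1D1 with 733, and CLOCK was again lowest with 363 (345 to 382). The intervals of DBP (740 to 799), CRY2 (710 to 766) and NR1D1 (704 to 764) all overlapped that of PER1. Overlap of intervals is not a test of a difference, and the order of these 4 genes in Luchuan was not tested. By this average DBP, NR1D1, PER1, PER2, PER3 and CRY2 stood above both activators in both breeds, while CRY1 was near ARNTL in both. NR1D2 stood above ARNTL in Duroc, and in Luchuan, with 410, it was near ARNTL with 414. These values are averages over strong and weak regions alike, and only 10 of 20 ARNTL regions and 8 of 23 CLOCK regions were common. The region across the ARNTL end held 977 Duroc and 1067 scaled Luchuan reads per kb. Across the lower end of DBP the values were 928 and 789, and across the higher end of CLOCK 683 and 729. The averages therefore do not rank the strong regions of these genes. For DBP, 6 of the 10 regions lay closer to a neighbouring gene.

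Other genes of the clock were examined from a list of 20, of which 18 were found by symbol. Their median log2 ratio was 0.02, and 15 of the 18 lay within 0.2 of 0. Most genes lie about as near, as the 10th and 90th percentiles of the 11724 genes were -0.26 and 0.22. RORA, which encodes a nuclear receptor that competes with the NR1D proteins, had 162 regions and a log2 ratio of -0.09 (-0.12 to -0.06). Of the 18, 2 passed 1.5-fold, both lower in Luchuan. Only 16 of the 18 reach the 1000 reads of the gene background above, in which 1.07% were lower by as much, and RORB is the 1 gene of those 16 that passed. FBXL21, which encodes a ubiquitin ligase component acting on CRY proteins, held 379 Duroc and 77 Luchuan reads over 2 regions, at -1.71 (-2.10 to -1.37). RORB, a relative of RORA, held 1493 Duroc and 639 Luchuan reads, at -0.65 (-0.79 to -0.52). ARNTL2, a relative of ARNTL, was just under that limit in the other direction (RORA and ARNTL2 were picked out after their values were seen), with 613 Duroc and 612 Luchuan reads, at 0.57 (0.40 to 0.73).

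The labelled tissue was compared with markers of cell types. Of 10 muscle fibre genes 9 were found, with 886 Duroc reads per kb over their regions and a log2 ratio of -0.06 for the list. TTN, the gene of the giant protein titin, held 56.0% of the Duroc reads of this list, and without it the list was at -0.20. Of the 9 muscle genes 7 lay below 0, from CKM at -0.46 to DES at -0.03, while TTN was at 0.04 and MYF6 at 0.11. The lists of adipocyte, endothelial, leucocyte and fibroblast genes, 4 each, had between 214 and 445 Duroc reads per kb and log2 ratios of -0.04 to 0.04. In each of these lists, too, 1 gene held most of the Duroc reads, from 59.8% to 73.3%. The adipocyte list was at -0.29 without CIDEC and the endothelial list at 0.27 without PECAM1. The leucocyte list was at 0.04 without CD79A and the fibroblast list at 0.12 without PDGFRA. Single markers of these lists ranged far more widely and in both directions. They ran from -0.92 (LEP) to 0.35 in adipocyte genes, from -0.12 to 0.80 (TEK) in endothelial genes, from -1.05 (PTPRC) to 1.22 (CD3E) in leucocyte genes and from -0.10 to 0.39 in fibroblast genes, where LUM had no region. CD3E rests on 13 Duroc and 21 Luchuan reads. Whether the mix of cells took part in the differences at the clock genes was not tested.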

How the data were processed

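ATAC-seq was performed on 6 of the 12 samples, 3 per breed, and RNA-seq on the others, which were not analysed here. Per the study's methods, reads were trimmed by Trimmomatic 0.36, Bowtie2 placed them on Sscrofa11.1, and MACS2 called the peaks. The authors deposited raw read counts, 1 column per breed and none per animal, for 217213 intervals, and these were read as pooled over the boars. Removal of duplicates and the transposase shift are not given in the sources used here. The assembly is from a Duroc animal, and its effect on alignment of Luchuan reads was not tested. Columns of the authors' own fold change, average signal and p-value were not used.

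Starts were read as counted from 0 (the shortest interval is then 150 bases) and are given from 1. Common intervals that overlapped or adjoined each other were joined, and the longest one stood for each region, leaving 140081 regions with medians of 61 Duroc and 38 Luchuan reads. Ratios had 1 added to each count. A gene's value is the sum over its regions. Gene ends came from RefSeq on chromosomes 1 to 18, X and Y, without strand or sequence, so no promoter or motif was examined. The reads carry no molecular identifiers and need not be independent molecules, so the intervals hold counting error alone. The members, lists, merging and comparisons were chosen with earlier results of these data known. Regions were named by a rule: those at or nearest the gene ends, the strongest of each gene and those past 2-fold with 50 reads or more. Others, such as the lowest region of a gene and regions past 2-fold with under 50 reads, were named after their values were seen. The alternatives were other scalings, windows, read minimums, added counts, ways of joining intervals and leaving out each gene. The scaling and intervals were tested on simulated independent Poisson counts. Those counts held no variation between animals, so that test cannot show whether the intervals hold beyond counting error. Tables were handled with pandas 2.3.3 and NumPy 2.4.6 in Python 3.11.15, intervals came from SciPy 1.17.1, and plots were drawn with Matplotlib 3.10.9.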

Additional observations from a re-analysis of the deposited data

How the results depend on the processing

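The log2 ratio of activators minus repressors stayed within its counting interval under all 25 alternatives, from -0.0094 with DBP among the activators to 0.10 as a difference of gene medians. Some of these could not move it. A constant scaling cancels in the difference, and the added counts entered it only through the scaling. The minimum of 20 reads removed no region, as the weakest had 24. The log2 ratio of the 10 genes together stayed below 0 under all 24 of its alternatives. It was -0.30 with counts scaled by the study's library totals, a scaling that moves the median of all regions to -0.20. It was -0.063 with gene bodies only, -0.065 with 2 kb around them and -0.047 with regions of 50 or more reads. With the scaling set from ratios that had 5 added to each count, it was -0.13. It was -0.054 with common regions only (chosen after seeing the data) and -0.12 without CRY2. Of 149 values of single genes under the alternatives, 127 stayed within their counting intervals and 2 passed 1.5-fold, the medians over regions of PER3 (-0.97) and NR1D2 (-0.74). The study's library totals moved every gene below 0, CRY2 to -0.10 included. PER3 has no region with its midpoint in the gene body, so gene bodies only gave no value for it.

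Regions 2-fold or more lower in Luchuan numbered 9, and 14 with the study's library totals, 4 with gene bodies only, 4 with 2 kb, 14 with 50 kb, 5 with regions of 50 or more reads after rescaling on them, 5 with 5 added, 1 with common regions only and 26 at 1.5-fold. Those higher numbered 0, and 2 with 50 kb, 2 with every interval as listed and 4 at 1.5-fold. The causes were not tested. No paired analysis was possible because the counts are 1 per breed, which also left no replicate to leave out. Depth limits the weak regions. At the CLOCK region of 46 reads, the counting interval of a 2-fold difference ran from -2.23 to -0.09.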
